A study of Mus musculus with 24 samples.

Results

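The 10 genes described here, called enzyme genes below, encode enzymes of mucin-type O-glycosylation and the chaperone of 1 of them, and were taken by name from a fixed list and matched by symbol to 10 of the 54146 Ensembl genes in the count tables. They comprise 5 GalNAc-transferases (Galnt3, Galnt4, Galnt7, Galnt10, Galnt12), the core 1 synthase C1galt1 with its chaperone C1galt1c1, the core 3 synthase B3gnt6, and the branching enzymes Gcnt3 and Gcnt4. RNA was sequenced from mouse small-intestinal organoids, which are three-dimensional cultures of the gut epithelium, in 2 separate experiments of 12 libraries each that were normalised separately. The genotype experiment held WT, CDK8-KO, CDK19-KO and Double-KO organoids (3 libraries each), all after 7 days in 600 nM 4-hydroxytamoxifen, and the inhibitor experiment held organoids given DMSO or Senexin B (SnxB), an inhibitor of the Mediator kinases CDK8 and CDK19, for 16 h or 24 h (3 libraries each). The labels describe all of these as biological triplicates. The study's methods derive the organoids from mice with floxed Cdk8 alleles, with or without a tamoxifen-inducible Cre driven by the Villin promoter, and do not state which of these gave the WT organoids, which the study elsewhere attributes to WT mice. Cdk8 was removed by that Cre, and counts on the gene Esr1, whose ligand-binding domain is part of it, were high only in libraries labelled CDK8-KO or Double-KO (below). Whether those counts come from the Cre was not examined, and Cdk8 loss and the presence of Cre cannot be told apart. Cdk8 was deleted at exon 2, and Cdk19 was disrupted with a guide RNA to exon 1 followed by drug selection and clonal picking, so differences between clones and the loss of Cdk19 cannot be told apart either. The labels give no genotype for the inhibitor experiment, whose organoids the study describes as WT. The counts used ran from 14636861 to 15473180 per library in the genotype experiment, whose libraries are unstranded so that the column used holds only a part of their gene reads (49.8% for the median gene), and from 27075937 to 28405118 in the inhibitor experiment. In the unstranded column they ran from 27761454 to 29299919 and from 28264517 to 28826860, so the depth was similar.

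Mucin-type O-glycosylation begins in the Golgi, where a family of polypeptide GalNAc-transferases links N-acetylgalactosamine to serine or threonine of the acceptor protein. This sugar is extended to the core 1 disaccharide by C1galt1 or to core 3 by B3gnt6, and beta-1,6-branching enzymes convert these to core 2 and core 4. In the intestine these glycans make up most of the mass of the secreted goblet cell mucin Muc2 and of the membrane mucins of the brush border, and hold the water of the mucus layer.

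The targeted genes were examined first. Cdk19 (chromosome 10, 40339564 to 40483818, GRCm38) had normalised counts of 711, 749 and 725.5 in WT, 702, 646 and 582 in CDK8-KO, 729, 420.1 and 422.5 in CDK19-KO, and 403, 355.5 and 773 in Double-KO libraries, where a normalised count is the count scaled by TMM, which corrects library size for composition, to the mean effective library size of its experiment. The library labelled CDK19-KO replicate 1 and the library labelled Double-KO replicate 3 therefore lay at the WT level of Cdk19 RNA, above the other 4 libraries labelled as lacking CDK19. The study's methods name Western blotting, sequencing of the targeted site and qPCR as checks that Cdk19 was lost, without tying them to single libraries, and these RNA values do not settle the genotype of either library. The counts of calls and the log2 differences of the 10 enzyme genes between genotypes were therefore also obtained with both left out, an alternative chosen after seeing the data, whereas the levels per length, the other gene lists and the cell type markers rest on all 12 libraries. Cdk8 (chromosome 5, 146231230 to 146302874) had normalised counts of 534.5 to 646 in WT, 634 to 857 in libraries labelled CDK8-KO and 645 to 707 in those labelled Double-KO, but counts over the whole gene do not check the loss of exon 2. Esr1, whose ligand-binding domain is part of the inducible Cre, was looked at after its values were seen: it had 286.1 to 393 normalised counts in the 6 libraries labelled CDK8-KO or Double-KO and 1.01 to 6.26 in the other 6.

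The labels name the tissue as intestinal organoids, yet the cell type field of the genotype libraries names 4T1, a mouse mammary tumour line. In those libraries the 7 intestinal epithelium markers summed to between 5399 and 7454 CPM (counts scaled to library size), with Lgals4 the most abundant, whereas the 7 mammary markers summed to between 0.0661 and 1.08 CPM and 0 of them passed the filter on low counts. The markers therefore matched the tissue field and not the cell type field. Markers of fibroblasts and smooth muscle summed to 13.0 to 30.1 CPM there, 88.2% to 98.4% of it from Vim, and markers of immune cells to 2.05 to 3.98 CPM, chiefly Cd68. Col1a2, Col3a1, Dcn, Cd3e, Adgre1 and Cd79a each had 3 counts or fewer in every genotype library.

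All 10 enzyme genes passed the filter on low counts in both experiments. Levels were compared between genes as RPKM, the count divided by exon length and library size. In WT libraries Gcnt3 (39.1 ± 3.77 RPKM, SD, n = 3) and Galnt4 (38.5 ± 1.77) led and overlapped, followed by C1galt1c1 (25.8) and Galnt7 (23.0), which overlapped neither each other nor their neighbours. Galnt12 (14.7), Galnt3 (14.6), C1galt1 (13.9) and Galnt10 (13.6) each overlapped the next, and Gcnt4 (12.1) lay below them. B3gnt6 came last with 0.404 ± 0.178 RPKM, a level below that of all but 9.93% of the genes tested, while Gcnt3 exceeded 90.9% of them. The small intestine is known for little core 3 synthase, which is mainly a colonic enzyme. In DMSO at 16 h the ends of the order were alike, with Gcnt3 at 51.8 ± 6.79 RPKM, clear of the overlapping Galnt4 (21.8), C1galt1c1 (20.7) and Galnt7 (20.7), and B3gnt6 at 0.435 ± 0.0835 RPKM.

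Under the labelled genotypes the order moved. In Double-KO libraries Gcnt3 (53.3 ± 12.1 RPKM) and C1galt1c1 (36.4 ± 1.95) led and did not overlap, while Galnt4, at 21.7 ± 3.77 RPKM, lay among Galnt7 (23.9), Galnt3 (23.8) and Gcnt4 (20.5 ± 8.22), each overlapping the next. In libraries labelled CDK19-KO Galnt4 (46.9 ± 7.93 RPKM) stood first and overlapped Gcnt3 (28.5 ± 8.88). Under SnxB at 24 h Gcnt3 reached 73.1 ± 3.23 RPKM, ahead of Galnt4 (26.4 ± 0.901) with no overlap. Galnt7 ranked 3 with 20.8 ± 1.67 RPKM in DMSO at 24 h, and 6 with 13.7 ± 0.926 RPKM under SnxB. In DMSO it overlapped C1galt1c1, the next below, and under SnxB the genes at ranks 3 to 6 each overlapped the next. The RPKM of all 10 genes summed to 195.6 ± 7.17 in WT, 221.6 ± 9.15 in CDK8-KO, 192.4 ± 2.85 in CDK19-KO and 229.4 ± 23.5 in Double-KO libraries, differences that were not tested. In summed CPM, which is not per length, Double-KO replicate 3 (844.9) lay within the WT range (819 to 883) and the other 2 of its group (1030 and 1025) above it.

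**Figure D1:**
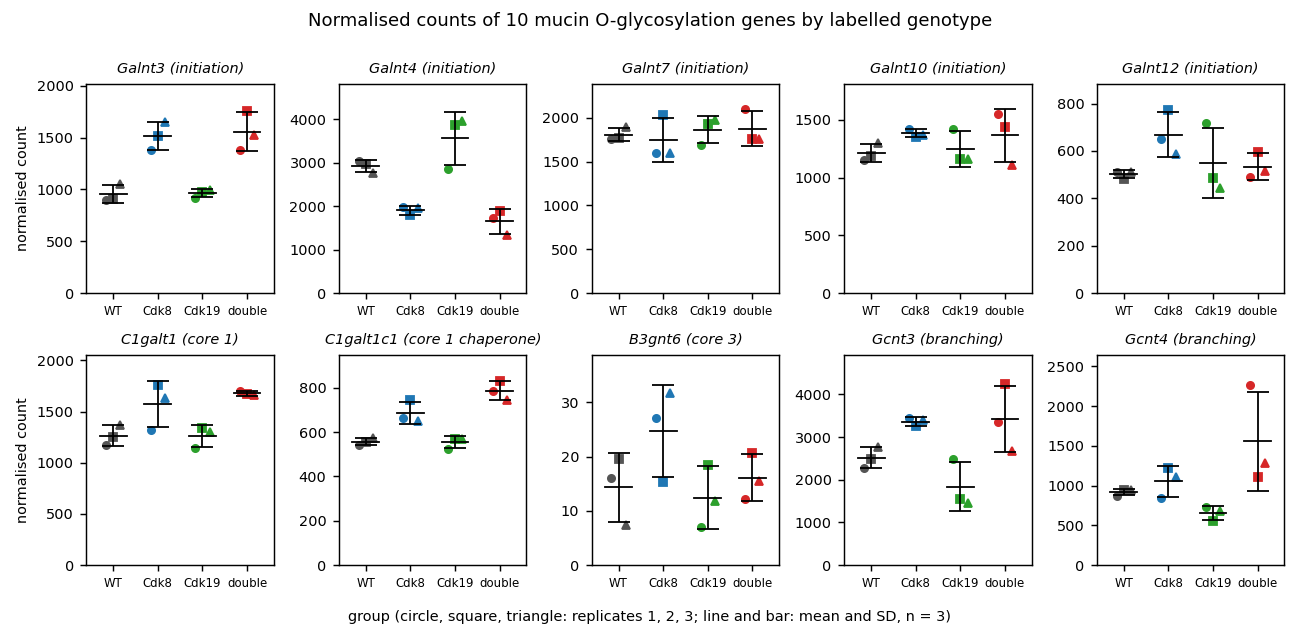
Normalised counts (vertical axes, starting at 0) of the 10 enzyme genes in the 12 libraries of the genotype experiment, grouped by label; circles, squares and triangles are replicates 1, 2 and 3, and lines with bars are the mean and SD (n = 3). Galnt3 and C1galt1c1 lie higher and Galnt4 lower in all libraries labelled CDK8-KO or Double-KO than in all WT libraries.

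In the genotype comparisons a gene was called when its Benjamini-Hochberg adjusted p over all genes tested was under 0.05. In CDK8-KO against WT 2 of the 10 enzyme genes were called, where 5.15% of all genes tested were: Galnt3 rose and Galnt4 fell. Without the pair of libraries at the WT level of Cdk19, 4 of the 10 were called against 8.27% of all genes. Neither library of that pair belongs to this comparison, but all groups share an estimate of the spread in the fit. In Double-KO against WT 5 of the 10 were called (Galnt3, C1galt1, C1galt1c1 and Gcnt4 higher, Galnt4 lower), against 17.3% of all genes, of which 9.41% were higher and 7.90% lower. Without that pair 7 of the 10 were called, against 19.0% of all genes. The median log2 difference of the 10 genes was 0.31 in CDK8-KO, 0.004 in CDK19-KO and 0.29 in Double-KO, where that of all genes tested was 0.01, −0.02 and −0.01, and it was −0.01 and −0.05 under SnxB at 16 h and 24 h.

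In libraries labelled CDK19-KO, edgeR called 0 of the 10 enzyme genes and 0% of all genes against WT. At an unadjusted p under 0.05 there was 1 of the 10 (1691 of all genes), and DESeq2 called 0 of the 10 and 309 genes in all. With the library labelled CDK19-KO replicate 1 and the library labelled Double-KO replicate 3 left out, 2 of the 10 and 4.21% of all genes were called. These counts against WT share the WT libraries and are not independent of one another. Libraries labelled Double-KO and CDK19-KO differed in 6 of the 10 genes, 5 higher and 1 lower in Double-KO, against 25.3% of all genes (14.4% higher, 11.0% lower). Without that pair the count was again 6, against 28.5% of all genes.

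Libraries labelled Double-KO and CDK8-KO differed in 0 of the 10 genes by edgeR (0.0256% of all genes). At an unadjusted p under 0.05 there were 2 of the 10 (2417 of all genes), and DESeq2 called 0 of the 9 it tested and 407 genes in all. Without the pair of libraries the count was also 0, against 0.139% of all genes. With only CDK8-KO replicate 3 left out it was 0 as well, against 839 of 15879 genes. By chi-square per gene of the counts, that library lay nearer to Double-KO replicates 2 and 3 (10.8 and 14.5) than to CDK8-KO replicates 1 and 2 (15.9 and 35.4). Double-KO replicate 1 lay at 35.6 from it, and the cause was not tested. The test of non-additivity, which asks whether the Double-KO difference departs from the sum of both single ones on the log2 scale, called 0 of the 10 by edgeR (0.0256% of all genes). At an unadjusted p under 0.05 there were 2 of the 10 (2269 of all genes), and DESeq2 called 1 of the 10, Gcnt4, and 490 genes in all. Without that pair it called 2 of the 10, against 4.60% of all genes.

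SnxB against DMSO at 16 h gave 1 called enzyme gene of 10, against 7.75% of all genes, and 2 against 14.8% with the replicate number as a block. At 24 h 3 of the 10 were called, 2 higher and 1 lower, against 27.5% of all genes (14.8% higher, 12.7% lower), and 5 against 36.9% with the block. The shares without the block were thus near the background at both times. The difference between the 16 h and 24 h responses was called for 0 of the 10 and 0% of all genes by edgeR, with 2 of the 10 (1995 of all genes) at an unadjusted p under 0.05, and DESeq2 called 0 of the 10 and 66 genes in all. Between DMSO at 24 h and at 16 h 1 of the 10 was called, against 11.1% of all genes. For that comparison 4 of the 10 and 3281 genes in all were called with the block. DESeq2 called 3 of the 9 it tested there and 2289 genes in all. In these bulk samples fewer cells of a type and less RNA per cell cannot be told apart.

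Among the GalNAc-transferases, Galnt3 (ENSMUSG00000026994, chromosome 2, 66082766 to 66124994, GRCm38) had normalised counts of 898, 907 and 1055 in WT libraries and of 1383, 1517 and 1653 in CDK8-KO libraries. They were 919.8, 974 and 994 in libraries labelled CDK19-KO and 1382, 1759.7 and 1528.5 in those labelled Double-KO. All 6 libraries labelled as lacking CDK8 lay above the other 6. The log2 difference from WT was 0.67 (SE 0.11, 95% interval 0.44 to 0.90, adjusted p 0.00501) in CDK8-KO and 0.71 (SE 0.11, interval 0.48 to 0.94, adjusted p 0.00152) in Double-KO. Double-KO exceeded CDK19-KO by 0.69 (SE 0.11, adjusted p 0.000814). Under SnxB the difference from DMSO was 0.03 at 16 h and −0.07 (adjusted p 0.691) at 24 h, and the groups overlapped at both times.

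Galnt4 (ENSMUSG00000090035, chromosome 10, 99108159 to 99113247) encodes a transferase that can also act on peptides already carrying GalNAc. It had normalised counts of 3039, 2966 and 2778 in WT libraries and of 1989, 1796 and 1957 in CDK8-KO libraries. They were 2868, 3869 and 3952.5 in libraries labelled CDK19-KO and 1740.2, 1885 and 1332 in those labelled Double-KO. The 6 libraries labelled as lacking CDK8 were the lowest, and of those labelled CDK19-KO, replicate 1 lay among the WT libraries and the other 2 above them. The log2 difference from WT was −0.61 (SE 0.14, interval −0.92 to −0.31, adjusted p 0.027) in CDK8-KO, a call lost when any 1 of the 6 libraries was left out (−0.66 to −0.57, adjusted p 0.0659 to 0.111). In Double-KO it was −0.83 (SE 0.14, interval −1.13 to −0.52, adjusted p 0.00262), and Double-KO lay −1.11 (SE 0.14, adjusted p 0.000332) from CDK19-KO. CDK19-KO against WT gave 0.28 (adjusted p 0.49), and 0.43 (adjusted p 0.0153), a call, without the library labelled CDK19-KO replicate 1 and the library labelled Double-KO replicate 3. Non-additivity was −0.50 (SE 0.20, adjusted p 0.278), and was called without that pair (−0.50, adjusted p 0.039).

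Galnt4 lies within the locus of Poc1b, a centriole protein gene on the same strand, and shares 420 exon bases (8.25% of its own) with it. The normalised counts of Poc1b were 1114 to 1425 in WT and 936 to 1208 in libraries labelled Double-KO, which overlapped (log2 difference −0.19, adjusted p 0.318). Poc1b was called under SnxB at 24 h (0.25, adjusted p 0.0445), where Galnt4 was not. In the inhibitor experiment Galnt4 had 3082, 3147 and 2961 normalised counts in DMSO at 16 h and 3700.0, 3423 and 3518 at 24 h, which did not overlap (log2 difference 0.21, SE 0.06, adjusted p 0.0345). That call was lost without DMSO 16 h replicate 3 (adjusted p 0.131) or without DMSO 24 h replicate 1 (0.137), replicate 2 (0.052) or replicate 3 (0.0795). Under SnxB Galnt4 differed from DMSO by 0.15 (adjusted p 0.15) at 16 h and 0.07 (adjusted p 0.427) at 24 h.

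Galnt7 (ENSMUSG00000031608, chromosome 8, 57523828 to 57653032), a follow-on transferase that adds GalNAc beside GalNAc already in place, had 1595 to 2102 normalised counts across the genotype experiment, with all 4 groups overlapping. Its difference from WT was −0.05 (adjusted p 0.833) in CDK8-KO and 0.05 (adjusted p 0.782) in Double-KO. In the inhibitor experiment it had 2808, 2975 and 3287 normalised counts in DMSO at 24 h and 2122, 1852 and 1983 under SnxB. Every SnxB library lay below every DMSO library at 24 h, and the log2 difference was −0.61 (SE 0.10, interval −0.82 to −0.39, adjusted p 0.000748). At 16 h DMSO libraries had 2536, 3164 and 3328 and SnxB libraries 2312, 2709 and 2518, which overlapped (−0.26, adjusted p 0.135). Without DMSO 16 h replicate 1, the lowest of its group, the 16 h difference was −0.37 (adjusted p 0.0135), a call. The change in response from 16 h to 24 h was −0.35 (SE 0.14, adjusted p 0.344).

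Galnt10 (ENSMUSG00000020520, chromosome 11, 57645442 to 57787514), likewise a follow-on transferase, had 1109 to 1547 normalised counts in the genotype experiment and 2268 to 2689.5 in the inhibitor experiment. Its difference from WT was 0.17 (adjusted p 0.366) in Double-KO, and 0.30 (adjusted p 0.0277), a call, without the library labelled CDK19-KO replicate 1 and the library labelled Double-KO replicate 3. Without that pair Double-KO also exceeded CDK19-KO by 0.35 (adjusted p 0.0146). Galnt12 (ENSMUSG00000039774, chromosome 4, 47091909 to 47123070) had 442.2 to 771 and 870.5 to 1143 normalised counts, and its difference from WT was 0.41 (adjusted p 0.172) in CDK8-KO and 0.09 (adjusted p 0.749) in Double-KO. Neither gene was called under SnxB at 16 h or 24 h. From DMSO at 16 h to 24 h Galnt12 gave −0.24 (adjusted p 0.0504) and Galnt10 −0.16 (adjusted p 0.0787). Both were called by DESeq2 and with the replicate block. Galnt12 was also called in the unstranded column and without DMSO 16 h replicate 1.

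C1galt1 (ENSMUSG00000042460, chromosome 6, 7844842 to 7875687) encodes the transferase that adds galactose to form core 1. It had normalised counts of 1172, 1254 and 1371 in WT libraries and of 1325, 1761.5 and 1632.5 in CDK8-KO libraries. They were 1141.5, 1336 and 1305 in libraries labelled CDK19-KO and 1704.5, 1670.1 and 1659.6 in those labelled Double-KO. The Double-KO libraries lay close together and above every WT and CDK19-KO library, while CDK8-KO replicate 1 lay among the WT libraries. The log2 difference from WT was 0.41 (SE 0.11, interval 0.17 to 0.64, adjusted p 0.0231) in Double-KO and 0.31 (adjusted p 0.116) in CDK8-KO, which was called in the unstranded column (0.35, adjusted p 0.049). The Double-KO call was lost without WT replicate 1 (adjusted p 0.100), WT replicate 2 (0.0731), Double-KO replicate 1 (0.0543) or Double-KO replicate 2 (0.0535), and CDK8-KO gave 0.42 (adjusted p 0.0433), a call, without CDK8-KO replicate 1. Double-KO exceeded CDK19-KO by 0.41 (SE 0.11, adjusted p 0.015), a call lost (0.34, adjusted p 0.0695) without the library labelled CDK19-KO replicate 1 and the library labelled Double-KO replicate 3. Under SnxB C1galt1 was not called at either time, with 1499 to 2181 normalised counts across the 12 libraries.

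C1galt1c1 (ENSMUSG00000048970, chromosome X, 38630785 to 38635087) encodes Cosmc, the endoplasmic reticulum chaperone that C1galt1 needs to fold. It had normalised counts of 543, 558 and 572 in WT libraries and of 665, 746 and 651 in CDK8-KO libraries. They were 525, 569.8 and 571 in libraries labelled CDK19-KO and 787.5, 830.1 and 746 in those labelled Double-KO. Libraries labelled CDK19-KO lay with WT, and all libraries labelled CDK8-KO or Double-KO lay above both. The log2 difference from WT was 0.50 (SE 0.08, interval 0.32 to 0.68, adjusted p 0.00242) in Double-KO, which also exceeded CDK19-KO by 0.50 (SE 0.08, adjusted p 0.0012). In CDK8-KO it was 0.30 (SE 0.08, adjusted p 0.0578), a call by DESeq2 (0.30, adjusted p 0.0278), and 0.29 (adjusted p 0.0427), a call, without the library labelled CDK19-KO replicate 1 and the library labelled Double-KO replicate 3, neither of which belongs to that comparison.

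Under SnxB C1galt1c1 went the other way in value. DMSO libraries had 727, 796 and 970.2 normalised counts at 16 h and SnxB libraries 653, 674 and 682, which did not overlap (−0.31, SE 0.11, adjusted p 0.116). With the replicate number as a block the same difference was called (−0.30, adjusted p 0.0131), as it was without DMSO 16 h replicate 1 (−0.40, adjusted p 0.036). At 24 h DMSO libraries had 666, 753 and 845 and SnxB libraries 552, 645 and 674, which overlapped, since the third SnxB library exceeded the first DMSO library. The difference was −0.27 (adjusted p 0.0901), and −0.27 (adjusted p 0.010), a call, with the block, within which the SnxB library was the lower one in all 3 pairs at each time.

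B3gnt6 (ENSMUSG00000074004, chromosome 7, 98192417 to 98199481), the core 3 synthase, rested on 204 raw counts in all of the genotype experiment, where the column of the other strand held a further 170, and on 348 in the inhibitor experiment. In the genotype experiment it had 7.05 to 31.7 normalised counts per library, and all 4 groups overlapped. At these low counts no difference was called (0.78, SE 0.43, adjusted p 0.326, in CDK8-KO, and 0.69, adjusted p 0.204, in the unstranded column). Under SnxB at 24 h it had 33.9, 40.6 and 44.7 normalised counts against 22.3, 14.6 and 19.1 in DMSO. The groups did not overlap and the log2 difference was 1.08 (SE 0.27, interval 0.51 to 1.66, adjusted p 0.00924). At 16 h it had 20.6, 40.6 and 27.6 against 22.4, 30.3 and 32.9, which overlapped, and the change in response from 16 h to 24 h was 1.03 (SE 0.38, adjusted p 0.31). Between DMSO at 24 h and at 16 h B3gnt6 gave −0.61 (adjusted p 0.175), so SnxB at 24 h was set against the lower of the DMSO means.

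Gcnt3 (ENSMUSG00000032226, chromosome 9, 70031496 to 70038088) encodes the mucin-type enzyme that makes core 2 and core 4 branches. Under SnxB at 16 h it had 8328, 8732.5 and 9470.5 normalised counts against 5286, 6308 and 6880.1 in DMSO. At 24 h it had 8408, 9134 and 8553 against 5025, 5453.5 and 5640.0. Every SnxB library exceeded every DMSO library of either time. The log2 difference was 0.52 (SE 0.09, interval 0.33 to 0.71, adjusted p 0.00247) at 16 h and 0.70 (SE 0.09, interval 0.50 to 0.89, adjusted p 0.000124) at 24 h, and Gcnt3 was the 1 enzyme gene of the 10 called at both times without the block.

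In the genotype experiment Gcnt3 had normalised counts of 2280.1, 2496 and 2764 in WT libraries and of 3438, 3250.6 and 3401 in CDK8-KO libraries. They were 2491.5, 1556 and 1457 in libraries labelled CDK19-KO and 3357, 4240.2 and 2683 in those labelled Double-KO. The library labelled CDK19-KO replicate 1 lay inside the WT range with the other 2 of its group below it, and the library labelled Double-KO replicate 3 also lay inside the WT range with the other 2 of its group above it. With all libraries the difference from WT was 0.42 (adjusted p 0.239) in CDK8-KO, −0.45 (adjusted p 0.423) in CDK19-KO and 0.45 (adjusted p 0.136) in Double-KO. CDK8-KO was called when only its group and WT were fitted (0.40, adjusted p 0.0382), and Double-KO with no filter on low counts (0.44, adjusted p 0.0436). Without those 2 libraries the difference was 0.41 (adjusted p 0.0323) in CDK8-KO, −0.72 (adjusted p 0.00693) in CDK19-KO and 0.59 (adjusted p 0.00553) in Double-KO, all called. Neither of the 2 belongs to the comparison of CDK8-KO with WT. Double-KO exceeded CDK19-KO by 0.90 (SE 0.20, adjusted p 0.00634), and non-additivity, 0.48 (adjusted p 0.45) with all libraries, was 0.91 (adjusted p 0.0127) without the 2.

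Gcnt4 (ENSMUSG00000091387, chromosome 13, 96924689 to 96950906) encodes a second core 2 branching enzyme. It had normalised counts of 870.0, 941 and 945 in WT libraries and of 843, 1224 and 1101.5 in CDK8-KO libraries. They were 727, 553 and 677 in libraries labelled CDK19-KO and 2269.6, 1113 and 1283 in those labelled Double-KO. All Double-KO libraries lay above all WT libraries and all CDK19-KO libraries below them, and Double-KO replicate 1 stood apart at the top. The log2 difference of Double-KO from WT was 0.76 (SE 0.23, interval 0.27 to 1.25, adjusted p 0.0387). The call was lost without Double-KO replicate 1 (0.40, adjusted p 0.110) and without WT replicate 1, 2 or 3 (adjusted p 0.124, 0.0921 and 0.0819). Without the library labelled CDK19-KO replicate 1 and the library labelled Double-KO replicate 3 it was 0.88 (adjusted p 0.0334). Double-KO exceeded CDK19-KO by 1.25 (SE 0.23, adjusted p 0.00237), CDK19-KO against WT gave −0.49 (adjusted p 0.469), and non-additivity was 1.05 (SE 0.32, adjusted p 0.174).

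The genotype libraries hold no strand information, and 535 exon bases of Gcnt4 (10.5%) at its 3′ end are shared with the antisense gene Gm48597 (chromosome 13, 96950372 to 96950914), so reads of the pair cannot be told apart there. Gm48597 had 1480 counts in all of the genotype experiment against 12523 for Gcnt4, and in Double-KO it differed from WT by 0.69 (adjusted p 0.0895). Double-KO exceeded CDK19-KO in Gm48597 by 1.27 (adjusted p 0.00529), a call. In the stranded inhibitor libraries Gm48597 had 0.976 to 5.14 normalised counts, where Gcnt4 had 1053 to 1349. Under SnxB at 24 h Gcnt4 differed from DMSO by −0.19 (SE 0.09, adjusted p 0.119), and with the replicate block by the same −0.19 (adjusted p 0.0332), a call.

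**Figure D2:**
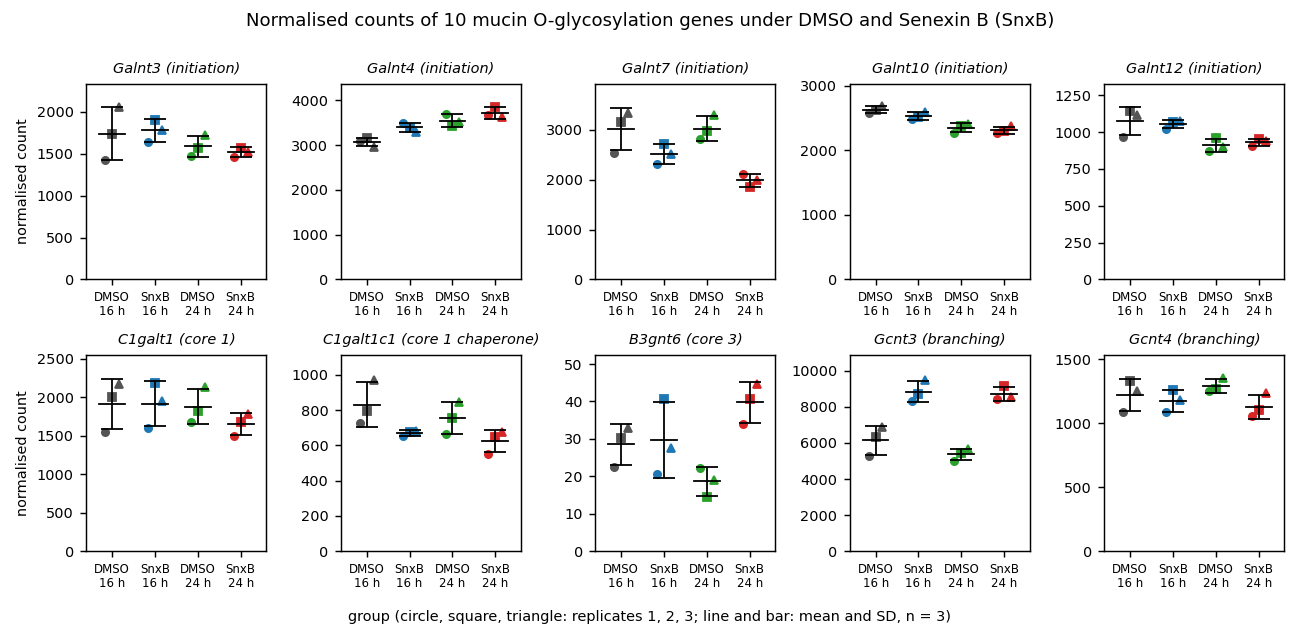
Normalised counts (vertical axes, starting at 0) of the 10 enzyme genes in the 12 libraries of the inhibitor experiment; circles, squares and triangles are replicates 1, 2 and 3, and lines with bars are the mean and SD (n = 3). Gcnt3 lies higher in all 6 SnxB libraries than in all 6 DMSO libraries, and Galnt7 is lower and B3gnt6 higher under SnxB at 24 h.

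**Figure D3:**
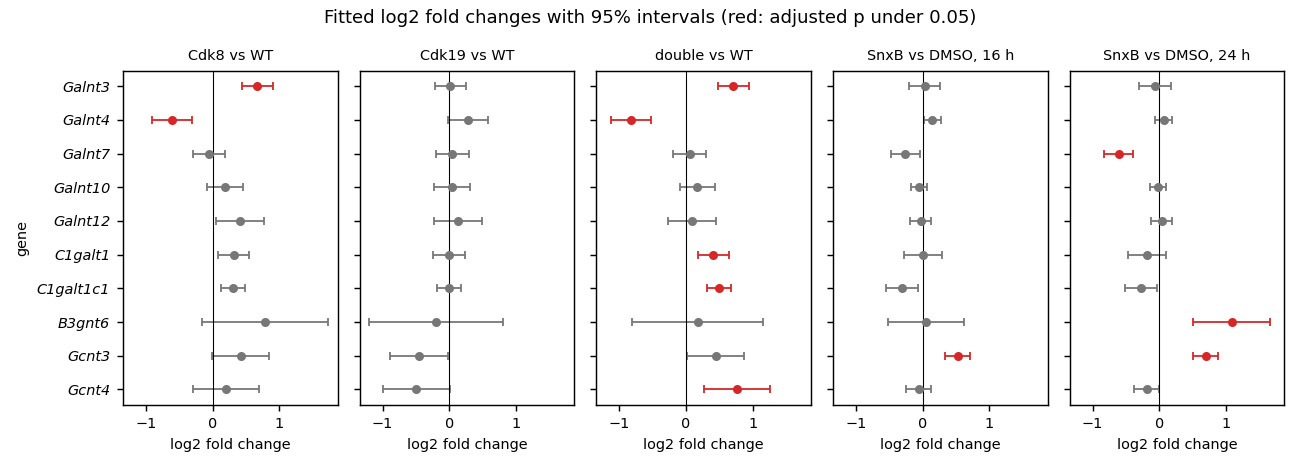
Log2 differences of the 10 enzyme genes from their control group (horizontal axis) with 95% intervals from edgeR (n = 3 libraries a group), red where called at an adjusted p under 0.05 and grey otherwise. Galnt3 is higher and Galnt4 lower in CDK8-KO and Double-KO, and Gcnt3 is higher at both SnxB times.

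With all libraries, Gcnt4 had the widest range of group means in the genotype experiment (1.19 on the log2 scale) and B3gnt6 in the inhibitor experiment (1.02). The 5 tested genes whose centred log2 CPM lay closest to Gcnt4 over the 12 genotype libraries were Slc26a3, the chloride-bicarbonate exchanger of the apical membrane, with a root mean square difference of 0.0896, then Tstd3 (0.119), the overlapping Gm48597 (0.126), Sc5d (0.129) and Tldc2 (0.139), where the profile of Gcnt4 itself had a root mean square of 0.50. Reads of Gm48597 and Gcnt4 cannot be told apart in their shared exon bases, so its closeness is not independent of Gcnt4. The genes closest to B3gnt6 over the 12 inhibitor libraries were Psmc3ip (0.211), Gm7935 (0.240), Gm14276 (0.247), Fzd8 (0.258) and 2700099C18Rik (0.264), against 0.45 for B3gnt6 itself.

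With all libraries Gcnt4 had the largest difference between labelled genotypes on the log2 scale among the 10 genes (1.25, Double-KO against CDK19-KO). Leaving out 1 library at a time took it as low as 0.87, below the size for Galnt4 with all libraries (−1.11). Because of the difference with all libraries, the stretch that ends at the annotated start of Gcnt4 is shown. It covers chr13:96924463-96924688 on the plus strand (GRCm38.p6), ends at the base before the gene, and comes from the RefSeq promoter table, which held an entry for 5 of the 10 genes (Galnt3, Galnt7, Galnt10, C1galt1 and Gcnt4). A second entry for Gcnt4, which lies wholly upstream of this stretch, was not searched. Capitals mark matches to GGGCGG on either strand, here read as CCGCCC.
Gcnt4: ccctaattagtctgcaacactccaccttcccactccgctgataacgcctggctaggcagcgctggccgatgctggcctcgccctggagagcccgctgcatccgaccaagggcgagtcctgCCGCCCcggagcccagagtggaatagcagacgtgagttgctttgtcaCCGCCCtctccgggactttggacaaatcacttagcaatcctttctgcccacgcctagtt
In this window GGGCGG occurred 2 times, and the other motifs searched on both strands, which were the TATA box (TATAAA), the CCAAT box, the GATA factor motif (GATAAG) and the CDX motif (TTTATG), 0 times. Of 32851 promoters in that table, 29.3% held GGGCGG in the stretch of the same length and position. The TATA box was held by 11.0%, the CCAAT box by 31.7%, the GATA factor motif by 6.05% and the CDX motif by 9.99% of them.

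Other genes of the pathway were taken from fixed lists. Their counts under SnxB, and those of the cell type markers below, rest on the fit without the replicate block. The share of all genes called in either direction, to be read beside the counts of each list below, was 5.15% in CDK8-KO, 17.3% in Double-KO, and 7.75% and 27.5% under SnxB at 16 h and 24 h. Of the other GalNAc-transferases, 7 of 14 were tested in the genotype experiment and 5 in the inhibitor experiment. Their median log2 difference was 0.21 in CDK8-KO, −0.16 in CDK19-KO, 0.38 in Double-KO, and −0.08 and −0.06 under SnxB at 16 h and 24 h. In Double-KO 1 was called, the low-abundance Galntl6 (11.2 against 28.8 normalised counts, log2 difference −1.35, adjusted p 0.0364), named after its values were seen. Under SnxB Galnt11 was called at 16 h (−0.24, adjusted p 0.0498) and Galntl6 at 24 h, both lower. Galnt1 and Galnt6, the family's widely expressed and epithelial members, gave 0.08 (adjusted p 0.55) and 0.38 (adjusted p 0.0561) in Double-KO and were also chosen after their values were seen.

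Of 13 tested genes for extension and sulfation, 1 was higher in CDK8-KO (5.15% of all genes called) and 4 were higher in Double-KO (17.3%), and under SnxB 2 were lower at 16 h (7.75%) and 4 at 24 h (27.5%). B4galt1, which adds galactose to extend branches, rose by 0.32 (adjusted p 0.0472) in CDK8-KO and 0.48 (adjusted p 0.00335) in Double-KO, and differed by −0.24 (adjusted p 0.0266) under SnxB at 24 h. B3gnt3, an extension enzyme of core 1, rose by 0.58 (adjusted p 0.00752) in Double-KO. Chst4, a sulfotransferase, differed by −0.35 (adjusted p 0.00649) and −0.54 (adjusted p 0.000121) under SnxB at 16 h and 24 h. The list's median log2 difference was 0.20 in CDK8-KO, −0.22 in CDK19-KO, 0.48 in Double-KO, −0.05 at 16 h and −0.13 at 24 h.

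Of the genes for fucose, sialic acid, GalNAc and N-acetylglucosamine caps, 3 of 13 tested were higher in CDK8-KO (5.15% of all genes called) and 3 in Double-KO (17.3%). Fut2, the secretor fucosyltransferase, rose by 1.53 (adjusted p 0.0109) and 1.21 (adjusted p 0.013). A4gnt, which adds N-acetylglucosamine, rose by 1.65 (adjusted p 0.0395) and 1.64 (adjusted p 0.0174). Under SnxB 4 of 12 were higher at 16 h (7.75%), and at 24 h 2 were higher and 1 lower (27.5%). St3gal6 rose by 0.56 at both times (adjusted p 0.000149 and 6.87e-05), and St6galnac1, which caps GalNAc with sialic acid, by 1.85 (adjusted p 0.00249) at 16 h and 0.50 (adjusted p 0.302), not a call, at 24 h. Of 15 genes for nucleotide sugars and their transport, 1 was higher in CDK8-KO and 6 in Double-KO, while 2 were higher and 1 lower at 16 h and 4 higher and 1 lower at 24 h, beside the same shares of all genes called. Slc35a2, the Golgi transporter of UDP-galactose, was called in all 4 of these comparisons, by 0.32, 0.44, 0.29 and 0.26. CDK19-KO, where 0% of all genes were called by edgeR, adds no called gene to these lists.

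Of the acceptors, 2 of 7 tested mucin genes were higher in CDK8-KO (Muc2 by 0.98, adjusted p 0.0071, and Muc3 by 0.81) and 4 in Double-KO (Muc2 by 1.36, adjusted p 0.00055, Muc3 by 1.61 and Muc13 by 0.73 among them). Under SnxB 1 was higher at 16 h and 2 at 24 h, and Muc13, a membrane mucin, rose by 0.53 and 0.42. Beside these counts the shares of all genes called were 5.15%, 17.3%, 7.75% and 27.5%.

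Markers of intestinal cell types were compared between the labelled genotypes, and 0 of them were called in CDK19-KO. The 9 Paneth cell markers were all called higher in CDK8-KO and 8 of them in Double-KO. They summed to 1571, 1750.3 and 1341 CPM in WT, 5481, 4221 and 4073 in CDK8-KO, 1700.3, 1748 and 1449 in CDK19-KO and 2635, 5334 and 4374 in Double-KO libraries, with Itln1 or Lyz1 the most abundant. Of 11 goblet cell markers, led by Fcgbp, 4 were higher in CDK8-KO and 2 in Double-KO, with sums of 2443, 2589 and 3389, then 4071, 3829 and 4336, then 2938, 1708 and 1489, and then 3008, 4937 and 3554 CPM in the same order of groups. This sum put the library labelled CDK19-KO replicate 1 inside the WT range and the other 2 of its group below, as Gcnt3 did, but among Double-KO libraries it put replicate 1 inside that range and replicate 3 above it, where Gcnt3 had replicate 3 inside. Of 10 enterocyte markers, 2 were higher in CDK8-KO and 5 in Double-KO, with sums of 12629, 13007 and 12687, then 14371, 14176 and 14445, then 11952, 8530.2 and 9239.7, and then 23583, 17490.3 and 17872 CPM. Double-KO replicate 1, the highest in Gcnt4, had the highest enterocyte sum and the lowest Paneth sum of its group.

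Of 6 stem cell markers, led by Olfm4, 1 was lower in CDK8-KO and 4 in Double-KO, and their sums were 3879, 3755 and 3504, then 3703, 4767 and 3249, then 4312, 6466 and 5675, and then 2908, 2879 and 2791 CPM. Of 10 enteroendocrine and 6 tested tuft cell markers, 1 and 2 were lower in Double-KO. Of the epithelium markers 3 were higher and 1 lower there, and Acta2, at 16.1 against 1.37 normalised counts, was the 1 called marker of fibroblasts and smooth muscle. No Paneth, goblet, enterocyte or stem cell marker was at 3 counts or fewer in any of these libraries, and Gnat3 was the 1 tuft cell marker that was. The part of these markers' differences in the enzyme results was not tested.

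Under SnxB, in the fit without the replicate block, 5 of 11 goblet markers were higher at 16 h, and at 24 h 5 were higher and 1 lower. Their sums were 3652, 3776 and 2978 CPM in DMSO and 3315, 3362 and 2976 in SnxB libraries at 16 h, and 4063, 3628 and 3583 against 3491, 3306 and 3114 at 24 h, with 52.2% to 70.2% of each sum from Fcgbp, the 1 marker called lower (−0.51 at 24 h, adjusted p 0.00746). The list's median log2 difference was 0.18 at 16 h and 0.27 at 24 h, and Zg16 rose by 0.54 and 1.08 and Clca1 by 0.85 and 0.96. Of 9 Paneth markers, led by Defa24, 2 were lower at 16 h and 5 at 24 h, with sums of 2078, 2972.5 and 2799 against 1914, 2081 and 1602 CPM at 16 h and 3141, 3016 and 2946 against 1862, 1565 and 1370.4 at 24 h. Of 10 enterocyte markers 2 were higher and 2 lower at 16 h and 4 higher and 1 lower at 24 h, with sums of 7099, 6584 and 6228 against 6029, 5877 and 5947 CPM at 16 h and 6516, 6425 and 5814 against 5699, 6258 and 6617 at 24 h. Stem cell markers had 1 higher (Slc12a2) and 1 lower (Lgr5) at each time. Enteroendocrine markers had 3 higher and 1 lower at 16 h and 5 higher and 2 lower at 24 h, and 3 of 6 tuft cell markers, Vim, and 1 epithelium marker were higher at 24 h with 2 epithelium markers lower. Their part in the enzyme results was not tested here either.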

How the data were processed

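The counts deposited by the authors are whole reads per Ensembl gene; the submitters' processing notes name FastQC, STAR 2.6.0c and GRCm38.p6. Column 4 of each gene count table was used. It held 49.8% of the stranded reads of the median gene in the genotype libraries, which therefore carry no strand information, and 92.0% in the inhibitor libraries. Reads that this column does not assign to a gene (63.1% to 65.2%, which includes gene reads of the other strand, and 21.5% to 25.1%) were left out of library sizes. In the genotype experiment this share was 65.04% to 65.21% in WT, 63.49% to 64.32% in CDK8-KO, 64.74% to 65.09% in CDK19-KO and 63.12% to 63.65% in Double-KO libraries. Reads mapping to several places were 22.51% to 22.86% in WT, 22.1% to 22.41% in CDK19-KO and 19.45% to 20.15% in Double-KO libraries. In CDK8-KO they were 21.75%, 21.98% and 19.74% in replicates 1, 2 and 3, so replicate 3 lay within the Double-KO range. The part of these shares in the results was not tested. The inhibitor libraries are described as depleted of ribosomal RNA although the extract protocol names oligo(dT) beads, so levels were not compared between experiments.

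Each experiment was fitted with all its groups in edgeR 4.0.16 (R 4.3.3): TMM scaling, filterByExpr (15602 and 15467 genes kept), quasi-likelihood test, Benjamini-Hochberg adjustment over all genes kept. The SE is the log2 difference over the square root of its F statistic. The code was tested on simulated counts. RPKM used exon lengths of GENCODE vM21 (54079 genes matched). Figures used matplotlib 3.10.9. Alternatives were DESeq2 1.42.0, its size factors in edgeR, other filters, the unstranded column, a replicate block, only the groups compared, each library left out in turn and, chosen after seeing the data, 2 libraries left out. No 2 libraries agreed within sampling noise (chi-square per gene at least 2.31 and 4.31 over 66 pairs each), which cannot tell libraries of 1 culture from separate ones. WT replicates 1 and 2 gave 2.31, where the other WT pairs gave 9.52 and 8.99. Replicates 2 and 3 were the closest pair in CDK19-KO (4.02), DMSO 24 h (4.86), SnxB 16 h (4.31) and SnxB 24 h (4.51), where other pairs within these groups gave at least 11.1. In CDK8-KO, Double-KO and DMSO 16 h the closest pairs gave 15.9, 22.5 and 12.7.

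Members and lists were chosen with earlier results of these data known. Named were all 10 enzyme genes, the 3 called genes of smallest adjusted p averaging at least 50 normalised counts per pathway list and comparison (fewer are printed), cell type markers, and the 5 closest profiles. St6galnac2 (2 gene IDs) and Muc17 could not be matched. Single values of 2 marker genes are not reported here. Replicate numbers come from the sample titles. Deviations of same-numbered SnxB and DMSO libraries correlated across genes at 0.303, 0.101 and 0.110 at 16 h and 0.377, 0.137 and 0.187 at 24 h, all over the 0.1 set for pairing. Those of different numbers ran from −0.221 to 0.154 and from −0.260 to 0.147, the highest between replicates 2 and 3, so only replicate 1 is set apart clearly. Protein sequences were not used here.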

Additional observations from a re-analysis of the deposited data

How the results depend on the processing

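Over the alternatives to the 50 log2 differences of single enzyme genes from their controls, 602 values kept their direction and side of the threshold, 17 became calls, 16 lost one and 42 changed sign, none of the 42 from a called value or to one. Of the counts of calls 203 stayed within 1.5 times and 89 did not. The cause was not tested, except that leaving out a library leaves fewer samples. B3gnt6 gave no genotype value with at least 10 counts in every library, which drops it.

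By DESeq2, genes called were 1294 in CDK8-KO against WT (804 by edgeR), 309 in CDK19-KO (0) and 407 in Double-KO against CDK8-KO (4). They were 490 in non-additivity (4, with 1 enzyme against 0) and 66 in the SnxB time difference (0). Between DMSO times DESeq2 called 3 enzymes and 2289 of 12438 genes, against 1 enzyme and 1719 genes by edgeR. With no filter on low counts the genes called were 1269, 479, 358, 566 (1 enzyme) and 121 in the same order. That setting called 0 enzymes and 1862 of 28413 genes between DMSO times. With at least 10 counts in every library Double-KO against CDK8-KO had 1 and non-additivity 0 genes. The unstranded column gave 9 genes for non-additivity, and 2 enzymes and 1825 of 15421 genes between DMSO times. Only the groups compared gave 15 genes in CDK19-KO, 0 in Double-KO against CDK8-KO, 725 (1198) under SnxB at 16 h, and 385 (1719) with 0 enzymes between DMSO times, and Gcnt4 in Double-KO lost its call (adjusted p 0.0662).

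In the paired fit with a replicate block, 2293 genes and 2 enzymes were called under SnxB at 16 h. At 24 h they were 5712 genes and 5 enzymes. Between DMSO times 3281 genes and 4 enzymes were called, with Galnt10, Galnt12 and Gcnt3 joining Galnt4 (pair correlations 0.366, −0.05 and 0.284). In the time difference 60 genes were called. In the genotype experiment replicate numbers did not pair the libraries. The block there gave 1 gene in Double-KO against CDK8-KO and 8 in non-additivity, and Gcnt4 in Double-KO had an adjusted p of 0.0621. It changed no other enzyme call.

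With both libraries at the WT level of Cdk19 left out, genes called were 1309 in CDK8-KO (4 enzymes against 2), to which neither library belongs, 666 in CDK19-KO (2 against 0), 22 in Double-KO against CDK8-KO and 728 in non-additivity (2 enzymes). In CDK19-KO against WT this changed the sign of Galnt10 (−0.053), Galnt12 (−0.0985), C1galt1 (0.0752), C1galt1c1 (0.0457) and B3gnt6 (0.095). Near-zero CDK19-KO values also changed sign for C1galt1 with DESeq2 size factors (0.0069), DESeq2 (0.008), no filter (0.0056), at least 10 counts (0.0034) and only the groups compared (0.0172). For C1galt1c1 the same settings gave 0.0052, 0.0065, 0.0039, 0.0015 and 0.0151, with 0.0122 in the unstranded column, which gave −0.0066 for Galnt7.

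Leaving out each library in turn gave ranges of 1 to 2 enzymes and 196 to 699 genes in CDK8-KO, 0 to 1 and 0 to 521 in CDK19-KO (the 1 was Gcnt3, −0.72, adjusted p 0.0338, without CDK19-KO replicate 1), 3 to 5 and 1348 to 2452 in Double-KO against WT, 3 to 839 genes in Double-KO against CDK8-KO, 2399 to 4318 against CDK19-KO and 0 to 467 in non-additivity. They were 1 to 3 enzymes and 657 to 1819 genes for SnxB at 16 h, 2656 to 3805 genes at 24 h, 0 to 3 enzymes and 434 to 2296 genes between DMSO times, and 0 to 26 genes in the time difference. Log2 differences that changed sign ran from −0.1778 to 0.0051 for Galnt7 in CDK8-KO. In CDK19-KO they ran from −0.0271 to 0.1105 for Galnt3, −0.053 to 0.1072 for Galnt10, −0.0985 to 0.2756 for Galnt12, −0.0576 to 0.0753 for C1galt1, −0.025 to 0.0457 for C1galt1c1 and −0.5864 to 0.107 for B3gnt6. In Double-KO against WT they ran from −0.0263 to 0.0975 for Galnt7 and −0.1265 to 0.4673 for B3gnt6. For SnxB at 16 h they ran from −0.0935 to 0.1687 for Galnt3, −0.1011 to 0.018 for Galnt12, −0.1272 to 0.117 for C1galt1, −0.2357 to 0.2569 for B3gnt6 and −0.1359 to 0.0068 for Gcnt4. At 204 and 348 raw counts in the column used, B3gnt6 is the enzyme that depth limits most.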
